A study of Homo sapiens with 12 samples.

Results

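Transcript levels of 10 genes of the interstitial extracellular matrix were followed across both cell lines of the study and all of its guides. The genes were taken by symbol from the deposited table of gene counts: the collagen genes COL1A1, COL1A2, COL3A1, COL5A1, COL5A2 and COL6A1, and the matrix genes SPARC, FN1, LOX and TIMP1. They are 10 of 25343 genes in that table. They had been listed as genes of OVK18 with trace levels in SW48, and the data fit that description only for part of the list. COL3A1 and COL5A2 were abundant in OVK18 and at trace levels in SW48. COL6A1 was higher in SW48 in every library, and TIMP1 was higher on average in SW48. COL1A1, COL1A2, COL5A1, SPARC, FN1 and LOX were low in both lines.

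All cells expressed Cas9 and were harvested 72 h after transduction with 1 guide RNA. The groups were OVK18, an ovarian cancer line, with sgWRN2, sgWRN3 or sgCh2-2, and SW48, a colorectal cancer line, with the same 3 guides. Guides sgWRN2 and sgWRN3 target WRN, a DNA helicase of the RecQ family, and sgCh2-2 is the control guide, which targets an intergenic site. There were 2 libraries, called A and B, in each of the 6 groups, and the labels do not say whether these came from separate cultures, so the spread between them may be technical.

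Interstitial collagens are secreted as triple-helical molecules, and the fibrillar ones assemble outside the cell into fibrils that give connective tissue its strength. Type I fibrils contain COL1A1 and COL1A2 chains, type III contains COL3A1 chains only, and type V, built from COL5A1 and COL5A2 chains, helps start fibrils and limits their width. Type VI, which forms beaded filaments, needs a COL6A1 chain, a COL6A2 chain and a further chain such as COL6A3. Fibroblasts are the usual source in tissue, and carcinoma cells of epithelial character usually make little of the fibrillar chains.

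Library totals ran from 15423162 to 32581625 counts. Levels of a gene across libraries are given as CPM, which scales counts to library size (here after TMM), and levels between genes as FPKM, which also divides by transcript length. The WRN transcript stood at 21 to 23 CPM in the 4 OVK18 libraries with WRN guides, against 32 and 39.8 CPM with sgCh2-2. In SW48 it stood at 34.1 to 56.9 CPM in the 4 libraries with WRN guides, against 91.2 and 112 CPM with sgCh2-2. Of 9 mesenchymal markers, 6 averaged over 1 CPM in OVK18 and 2 in SW48, and their summed level ran from 197 to 245 CPM in OVK18 and from 7.18 to 10.3 CPM in SW48. The defining markers split: ZEB1, a transcription factor of mesenchymal cells, averaged 165 CPM in OVK18 controls and 1.39 CPM in SW48 controls, while VIM averaged 1.59 CPM and THY1 and PRRX1 had no count in any OVK18 library. The 9 epithelial and intestinal markers summed to 12.5 to 18 CPM in OVK18 and 2610 to 3380 CPM in SW48. Leukocyte markers summed to at most 4.36 CPM and endothelial markers to at most 0.324 CPM in any library.

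Of the fibrillar chains, COL5A2 had the highest level in OVK18. It stood at 763 and 759 CPM with sgWRN2, 643 and 649 CPM with sgWRN3, and 639 and 686 CPM with sgCh2-2. In SW48 its 6 libraries held 20 to 35 counts each, at 1.12 to 1.73 CPM. The lines were far apart, and among the OVK18 libraries both sgWRN2 libraries lay above all others. The control mean of COL5A2 was 561-fold higher in OVK18 than in SW48, at 663 ± 33 against 1.18 ± 0.0859 CPM (SD, n = 2 each). The OVK18 mean of 74.4 ± 6.84 FPKM (SD, n = 6) was higher than that of 96.6% of the 25365 genes in the FPKM table.

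COL3A1, the chain of type III collagen, stood at 388 and 383 CPM in OVK18 with sgWRN2, 442 and 424 CPM with sgWRN3, and 455 and 417 CPM with sgCh2-2. In SW48 it had 10 counts over all 6 libraries, 7 of them in library A of sgCh2-2, and 2 libraries had none. Both sgWRN2 libraries of OVK18 lay below the other 4, by less than the gap between the lines. The control mean of COL3A1 was 436 ± 26.5 CPM in OVK18 and 0.112 ± 0.159 CPM in SW48 (SD, n = 2 each). The SW48 control mean rests on 7 counts in library A and 0 in library B, so the size of the fold between the lines is uncertain. The OVK18 mean was 54.8 ± 3.98 FPKM (SD, n = 6). Within OVK18 libraries the ratio of COL5A2 to COL3A1 in FPKM ran from 1.17 to 1.62. COL3A1 and COL5A2 both lie on chromosome 2, next to each other on opposite strands.

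COL5A1, which shares type V molecules with COL5A2, was scarce. It stood at 1.68 and 2.25 CPM in OVK18 with sgWRN2, 1.22 and 0.892 CPM with sgWRN3, and 1.09 and 0.867 CPM with sgCh2-2. SW48 libraries held 2 to 10 COL5A1 counts each. Both lines thus lay near the lower end of detection, with OVK18 above SW48 in every library. In OVK18 libraries COL5A2 exceeded COL5A1 in FPKM by 423 to 1040 times, against 3.15 to 13.5 times in SW48 libraries.

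The type I chains were as low. COL1A1 stood at 0.736 and 0.603 CPM in OVK18 with sgWRN2, 1 and 1.01 CPM with sgWRN3, and 0.699 and 1.52 CPM with sgCh2-2, where the control libraries enclosed the values of sgWRN3. SW48 libraries held 1 to 6 COL1A1 counts each. COL1A2 stood at 2 and 2.74 CPM in OVK18 with sgWRN2, 1.7 and 1.86 CPM with sgWRN3, and 1.63 and 1.49 CPM with sgCh2-2. COL1A2 had no count in any SW48 library. In controls its mean was at least 25.8-fold higher in OVK18, taking 3 counts over both SW48 control libraries as the floor. In FPKM the OVK18 means were 0.105 ± 0.0377 for COL1A1, 0.253 ± 0.0715 for COL1A2 and 0.111 ± 0.0502 for COL5A1 (SD, n = 6 each), all under 1 FPKM.

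Of the 6 other fibrillar chains, COL11A1, a close relative of COL5A1, was the one at a level near COL3A1 in OVK18. It averaged 27.6 ± 3.44 FPKM in OVK18 controls and was listed at 0 in SW48 controls (n = 2 each), with 2 counts in all 6 SW48 libraries together. COL27A1 averaged 0.802 ± 0.469 FPKM in OVK18 controls and 1.84 ± 0.126 FPKM in SW48 controls. COL5A3 and COL2A1 had at most 9 counts in any library of either line.

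**Figure D1:**
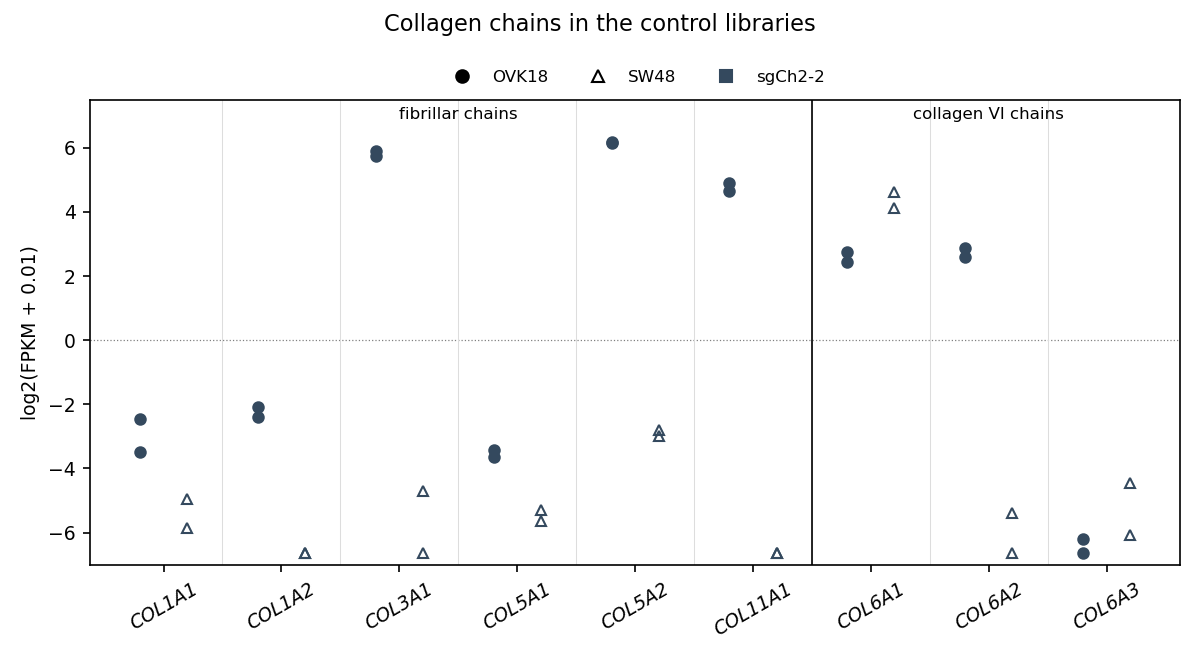
Levels of 9 collagen chains in the control (sgCh2-2) libraries, as log2(FPKM + 0.01), with 1 point per library, 2 for each line. Circles are OVK18 and triangles SW48. COL3A1, COL5A2 and COL11A1 stand above the dotted line at 1 FPKM in OVK18 only, COL6A1 does so in both lines, and COL6A2 in OVK18 only.

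COL6A1, a chain of type VI collagen, ran the other way between the lines. It stood at 38.9 and 47.6 CPM in OVK18 with sgWRN2, 45.7 and 37.9 CPM with sgWRN3, and 39.6 and 34.2 CPM with sgCh2-2. In SW48 it stood at 130 and 163 CPM with sgWRN2, 140 and 105 CPM with sgWRN3, and 132 and 98.3 CPM with sgCh2-2. Every SW48 library lay above every OVK18 library, and the guides overlapped within each line. The control means were 36.9 ± 3.82 CPM in OVK18 and 115 ± 24.1 CPM in SW48 (SD, n = 2 each), 3.12-fold higher in SW48.

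COL6A2, which joins COL6A1 in type VI molecules, did not follow it between the lines. COL6A2 stood at 28.4 to 36.8 CPM in OVK18 libraries, with a median of 32.4 CPM, whereas the 6 SW48 libraries held 3 COL6A2 counts in all. The ratio of COL6A2 to COL6A1 in FPKM was 0.93 to 1.11 in OVK18 libraries and at most 0.000798 in SW48 libraries. COL6A3 had 8 counts over the 6 OVK18 libraries and 33 over the 6 SW48 libraries. COL6A5 and COL6A6, other type VI chains, had 3 and 0 counts over the OVK18 libraries, and 215 and 61 over the SW48 libraries. COL6A3, COL6A5 and COL6A6 were therefore low in both lines, with more counts in SW48, as for COL6A1. SW48 thus had COL6A1 transcript at a mean of 22.9 ± 4.28 FPKM (SD, n = 6) with traces of COL6A2 and COL6A3.

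Among the non-collagen members, SPARC and FN1 were low in both lines. SPARC, a secreted protein that binds collagen, stood at 0.653 to 1.58 CPM in OVK18 libraries, with a median of 1.06 CPM, and had 6 counts over the 6 SW48 libraries. FN1 encodes fibronectin, which links cells to the matrix; it stood at 0.853 to 1.92 CPM in OVK18, with a median of 1.31 CPM, and had 14 counts over the 6 SW48 libraries. For SPARC and for FN1 every OVK18 library lay above every SW48 library. LOX, the lysyl oxidase that starts cross-links between collagen molecules, had 0 to 7 counts per OVK18 library and none in SW48. Pooled over the 6 OVK18 libraries, LOX stood at 0.156 CPM, with an exact Poisson 95% interval of 0.1 to 0.233 CPM. The 0 counts of LOX in SW48 allow up to 0.032 CPM by the same interval. The floor of 3 counts over the 6 libraries is 0.026 CPM. These intervals and floors cover counting error only.

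In order of OVK18 mean, the members over 1 FPKM were COL5A2, COL3A1, TIMP1 at 53.3 ± 32.5 FPKM and COL6A1 at 6.8 ± 1.12 FPKM (SD, n = 6 each). The range of TIMP1 overlapped those of COL5A2 and COL3A1, which did not overlap each other, and COL6A1 lay below all 3. The next 5 in OVK18, from COL1A2 at 0.253 FPKM through SPARC, FN1 and COL5A1 to COL1A1 at 0.105 FPKM, overlapped with their neighbours in this order, and LOX was last at 0.0275 FPKM. In SW48 only TIMP1, at 124 ± 21.7 FPKM, and COL6A1 were over 1 FPKM, and COL5A2 came next at 0.148 ± 0.0319 FPKM (SD, n = 6 each). In all, 4 members in OVK18 and 2 in SW48 were over 1 FPKM; the share of all genes over it was 44.4% in OVK18 and 44.3% in SW48. By control mean, 8 members were higher in OVK18 and 2 in SW48. Among all 14199 genes tested between the controls, 34.7% were called higher and 33.9% lower in OVK18. These shares count genes past the threshold, whereas the members were counted by mean alone, so the figures cannot be compared. The members were listed for this difference between the lines, so it is described here without a test.

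**Figure D2:**
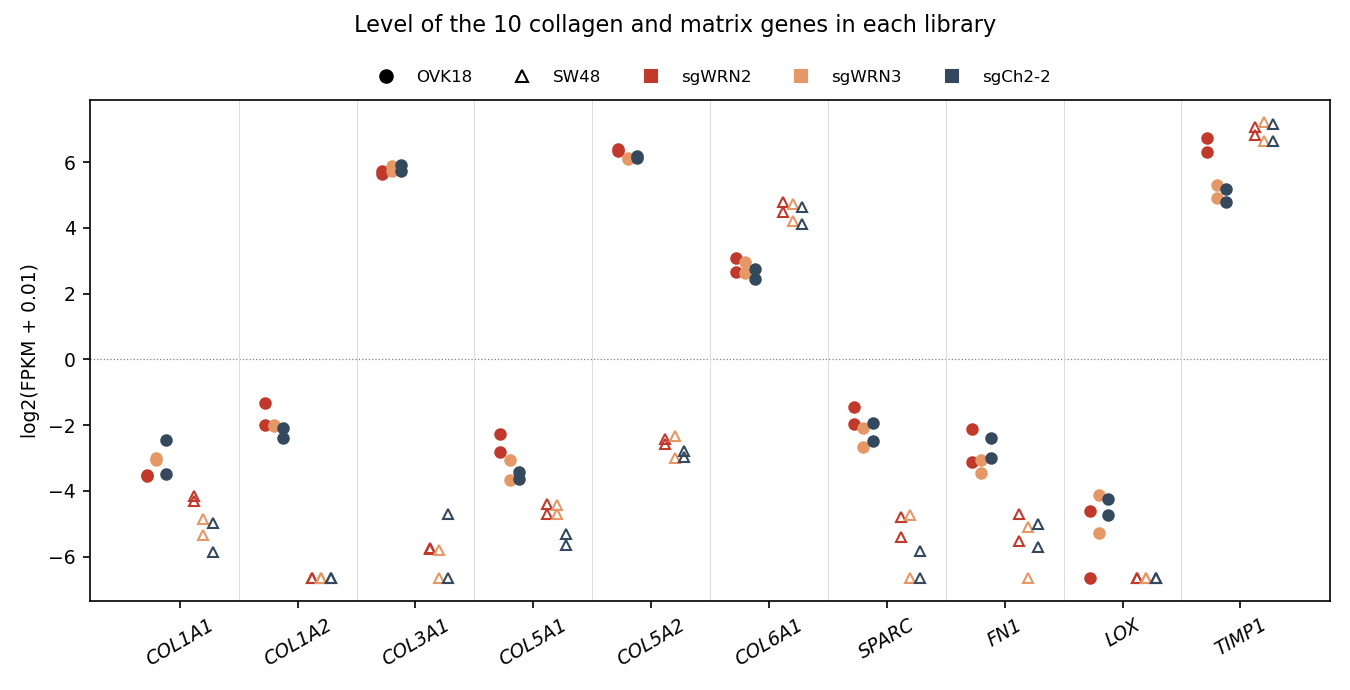
Levels of the 10 matrix genes in all 12 libraries, as log2(FPKM + 0.01), by gene. Circles are OVK18 and triangles SW48, coloured by guide, with 1 point per library; the dotted line marks 1 FPKM. COL5A2 and COL3A1 are high in OVK18 alone, COL6A1 and TIMP1 are expressed in both lines, and the other 6 genes lie below 1 FPKM in every library.

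TIMP1 was the member that moved with a guide. It encodes a secreted inhibitor of matrix metalloproteinases, the enzymes that cut collagens and other matrix proteins. The 250 bases before its start are shown because TIMP1 carries the guide result. They lie on the plus strand at chrX:47582186-47582435 in the RefSeq promoter table (build GRCh38.p14), in which 5 of the 10 members were matched. Capitals mark TGAGTAA, a sequence resembling the AP-1 consensus, and GGGCGG on the other strand, which reads CCGCCC here.
TIMP1: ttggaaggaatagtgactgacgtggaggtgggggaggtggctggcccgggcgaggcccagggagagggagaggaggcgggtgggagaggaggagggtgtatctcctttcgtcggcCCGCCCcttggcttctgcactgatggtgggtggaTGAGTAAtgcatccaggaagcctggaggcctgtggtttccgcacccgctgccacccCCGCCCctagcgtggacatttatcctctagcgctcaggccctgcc
TGAGTAA starts 101 bases before the start of the gene, and the GGGCGG matches 135 and 45 bases before it. On either strand TGAGTAA was found in 2.21% and GGGCGG in 42.6% of 35116 promoter windows of the same length. No match to TGANTCA (6.57% of windows), TATAA (18.9%) or CCAAT (32%) was found in the TIMP1 window. The other 4 matched members, COL5A1, SPARC, FN1 and LOX, held no TGAGTAA in theirs. Most of the 35116 windows held none either, so this does not set TIMP1 apart from them.

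TIMP1 stood at 85.9 and 101 CPM in OVK18 with sgWRN2, 39.5 and 32.3 CPM with sgWRN3, and 36.4 and 29.1 CPM with sgCh2-2. Both sgWRN2 libraries lay above the other 4, and sgWRN3 overlapped with the control. In SW48 it stood at 121 and 138 CPM with sgWRN2, 139 and 108 CPM with sgWRN3, and 135 and 100 CPM with sgCh2-2, and all 3 guides overlapped. Library B of sgWRN2 in OVK18 reached the range of SW48, whose lowest library was at 100 CPM, while the other 5 OVK18 libraries stayed below it. Within OVK18, TIMP1 ran from 29.1 to 101 CPM, the widest range relative to its mean among the 4 members over 1 FPKM.

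In OVK18, TIMP1 rose with sgWRN2 by 1.52 on the log2 scale against sgCh2-2 (SE 0.184, adjusted p = 0.00229, edgeR's quasi-likelihood test). The means were 93.6 ± 10.9 CPM with sgWRN2 and 32.8 ± 5.13 CPM with sgCh2-2 (SD, n = 2 each). It was the 1 member of 9 tested that was called with sgWRN2 in OVK18, where 0.796% of all genes were called and 0.535% were called higher. Against sgWRN3 the difference in OVK18 was 1.38 (SE 0.184, adjusted p = 0.00701), again the 1 member called, with 0.747% of all genes called. The sgWRN2 call missed the threshold without library B of the OVK18 sgCh2-2 group (1.39, adjusted p = 0.0541), the upper end of a range from 1.13e-23 over 26 alternatives. The call against sgWRN3 did so without library A (1.56, adjusted p = 0.0515) or B (1.28, adjusted p = 0.071) of the OVK18 sgWRN3 group, within a range of 1.27e-19 to 0.071 over the alternatives. In bulk RNA, a change in some cells cannot be told apart from a smaller change in all. Both comparisons share the sgWRN2 libraries, and TIMP1 showed no call with sgWRN3 against sgCh2-2 (0.13, SE 0.184, adjusted p = 1).

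Averaged over both WRN guides, the TIMP1 difference in OVK18 was 0.82 (SE 0.163, adjusted p = 0.239, edgeR's quasi-likelihood test). In SW48 it was 0.10 (SE 0.154, adjusted p = 1), and 0.13 with sgWRN2 alone (SE 0.178, adjusted p = 0.86). The difference between the lines in the effect of both guides was 0.73 (adjusted p = 1). A contrast of the sgWRN2 effect alone between the lines, added after the values had been seen, was 1.38 (SE 0.254, adjusted p = 0.0504), where 0.303% of all genes were called. A larger TIMP1 response in OVK18 than in SW48 therefore did not pass the threshold in either form.

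TIMP1 lies within SYN1, a synaptic vesicle gene on the opposite strand, and the strand setting of the counting is not given in the sources used here. SYN1 had 114 and 58 counts in OVK18 with sgWRN2, 24 and 23 with sgWRN3, and 14 and 25 with sgCh2-2, and 2 to 4 counts in SW48 libraries. SYN1 was higher in both sgWRN2 libraries of OVK18 than in the other 4, by 2.43 on the log2 scale against sgCh2-2 (SE 0.287, adjusted p = 0.00212, edgeR's quasi-likelihood test). Without library A of the OVK18 sgCh2-2 group the adjusted p of SYN1 was 0.0571, the upper end of a range from 5.32e-09 over its alternatives. The SYN1 counts were 1.49 to 4.65% as many as those of TIMP1 in OVK18 libraries. Whether reads of 1 of these genes were counted for the other was not tested. In all, 6 of the 10 members overlap a gene on the opposite strand in the GENCODE annotation.

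**Figure D3:**
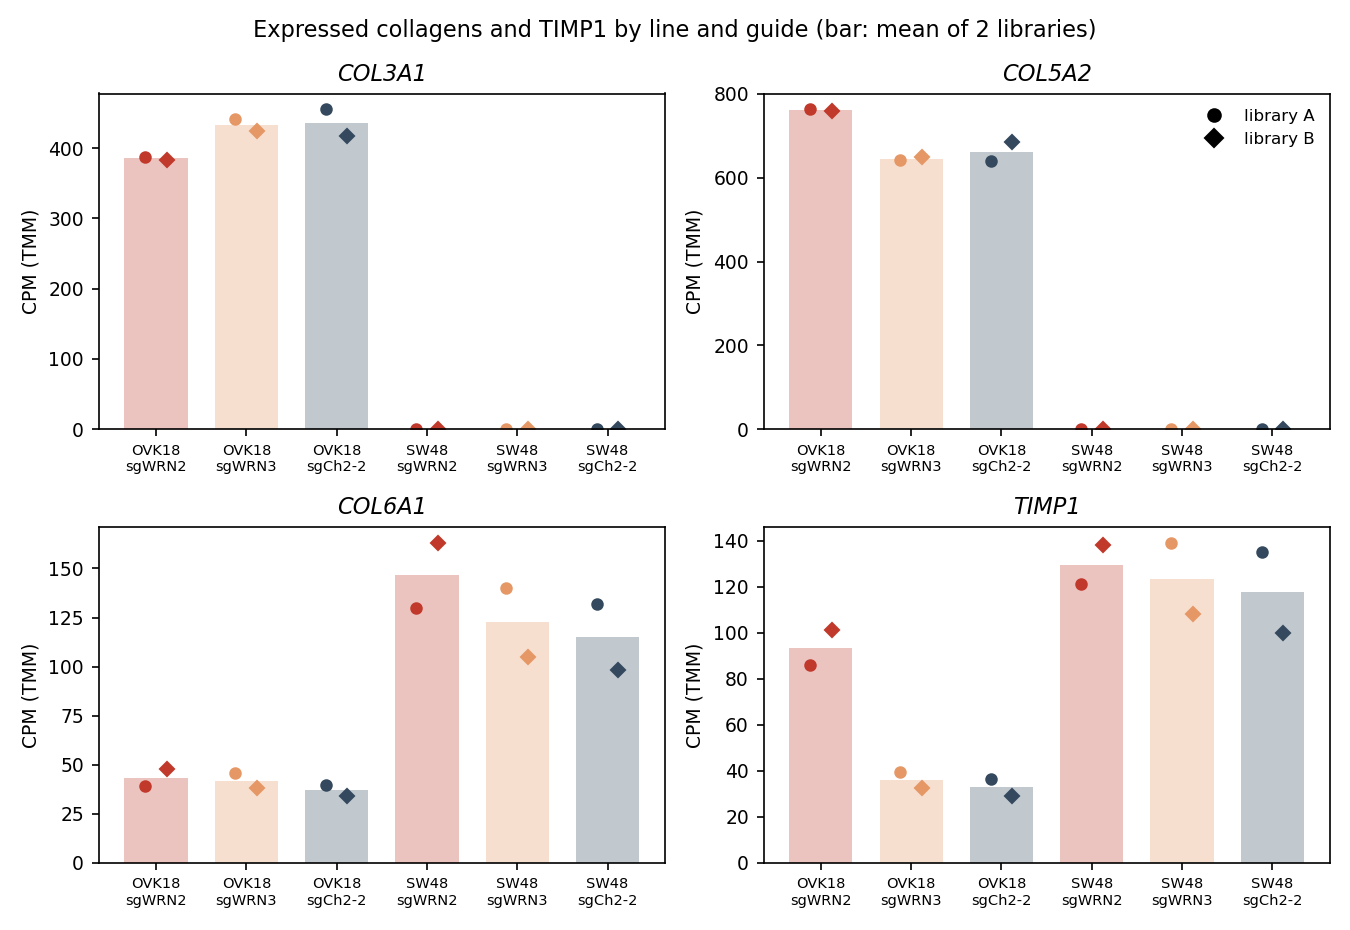
CPM of the 4 members over 1 FPKM in OVK18, by line and guide, on linear axes from 0. Bars are means of 2 libraries, circles library A and diamonds library B. TIMP1 reaches 85.9 and 101 CPM with sgWRN2 in OVK18 against 29.1 to 39.5 CPM with the other guides, and COL6A1 is higher in SW48 with every guide.

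By edgeR without a replicate block, no other member was called under any WRN guide. With both guides in OVK18, edgeR called 0 of 9 members and 0.0282% of all genes; 1 member, TIMP1, had an unadjusted p under 0.05. DESeq2 called 1 member there, TIMP1, among 30 genes in all, and limma-voom 0 members. With both guides in SW48, edgeR called 0 of 9 members and 0.866% of all genes, 1 member had an unadjusted edgeR p under 0.05, and DESeq2 and limma-voom called 0. In a fit of the 6 SW48 libraries alone, 3 members passed the filter on low counts and 0 were called. The other tested members entered through their OVK18 counts, so tests within SW48 say little about them. With sgWRN2 in SW48 all 3 tools called 0 members, and edgeR called 3.08% of all genes; the unadjusted p was under 0.05 for 1 member by edgeR, 1 by DESeq2 and 3 by limma-voom. With sgWRN3 in either line, edgeR called 0% of all genes and the 3 tools called 0 members; the unadjusted p was under 0.05 for 0 members, except 1 by limma-voom in SW48. DESeq2 gave no adjusted p for 5 members with both guides in either line, with sgWRN2 in OVK18, and for sgWRN2 against sgWRN3 in either line. For sgWRN2 against sgWRN3 in SW48 (0.944% of all genes called) and for the difference between the lines (0.0282%), edgeR, DESeq2 and limma-voom also called 0 members. The unadjusted p was under 0.05 for 0 members by each tool for sgWRN2 against sgWRN3 in SW48, and for the difference between the lines for 1 by edgeR, 1 by DESeq2 and 2 by limma-voom. Over all genes the unadjusted edgeR p was under 0.05 for 4.04% with both guides in OVK18 and 7.84% in SW48. It was so for 13.1% with sgWRN2 in SW48 and 2.75% for the difference between the lines.

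Among the abundant fibrillar chains the guide differences were small. COL5A2 differed by 0.20 with sgWRN2 (SE 0.0941, adjusted p = 0.376) and by -0.04 with sgWRN3 (SE 0.0941, adjusted p = 1) in OVK18, against sgCh2-2 by edgeR's quasi-likelihood test. COL3A1 differed by -0.18 (SE 0.141, adjusted p = 0.639) with sgWRN2 and by -0.01 (SE 0.141, adjusted p = 1) with sgWRN3. COL5A2 and COL3A1 thus lay on opposite sides of the control with sgWRN2, neither past the threshold.

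COL6A1 differed by 0.22 (SE 0.191, adjusted p = 0.67) with sgWRN2 in OVK18 and by 0.34 (SE 0.186, adjusted p = 0.486) with sgWRN2 in SW48. For COL6A1, and likewise for TIMP1, library A was above library B with sgCh2-2 and sgWRN3 in both lines, and B above A with sgWRN2 in both lines.

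COL5A1 was the low member with the smallest p under the guides. It differed by 0.99 with sgWRN2 in OVK18 (SE 0.309, adjusted p = 0.182) and by 1.45 with both guides in SW48 (SE 0.515, adjusted p = 0.392) by edgeR's quasi-likelihood test. The 4 WRN-guide libraries of SW48 stood at 0.298 to 0.605 CPM in COL5A1, against 0.16 and 0.108 CPM in controls. These are 5 to 10 counts against 5 and 2. COL1A2 in OVK18 differed by 0.39 for both guides (SE 0.25, adjusted p = 1). COL1A1 in SW48 stood at 0.179 to 0.363 CPM with WRN guides, against 0.16 and 0.054 CPM in controls. These are 3 to 6 counts against 5 and 1, with a difference of 1.02 (SE 0.664, adjusted p = 0.837). With both guides edgeR called 0.0282% of all genes in OVK18 and 0.866% in SW48. For COL1A1, SPARC and FN1 in OVK18 the both-guide differences were -0.45, 0.21 and -0.34, with adjusted p = 1 for each, and the libraries with WRN guides overlapped with the controls. LOX did not pass the filter on low counts and was not tested, so 9 of the 10 members were.

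Over the 9 tested members, the median log2 difference with both guides in OVK18 was 0.20, beside 0.000 over all 14199 genes. Of the 9 members, 6 were above 0 and 3 below in OVK18. The SW48 median was 0.21, beside 0.004 over all genes. It rests largely on members with few SW48 counts and is not read as a rise. Over the 6 SW48 libraries COL1A2 had 0 counts, SPARC 6, COL3A1 10 and FN1 14. COL1A1, COL1A2, COL5A1, SPARC and FN1 had at most 57 counts in any library, which limits the precision of their differences.

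**Figure D4:**
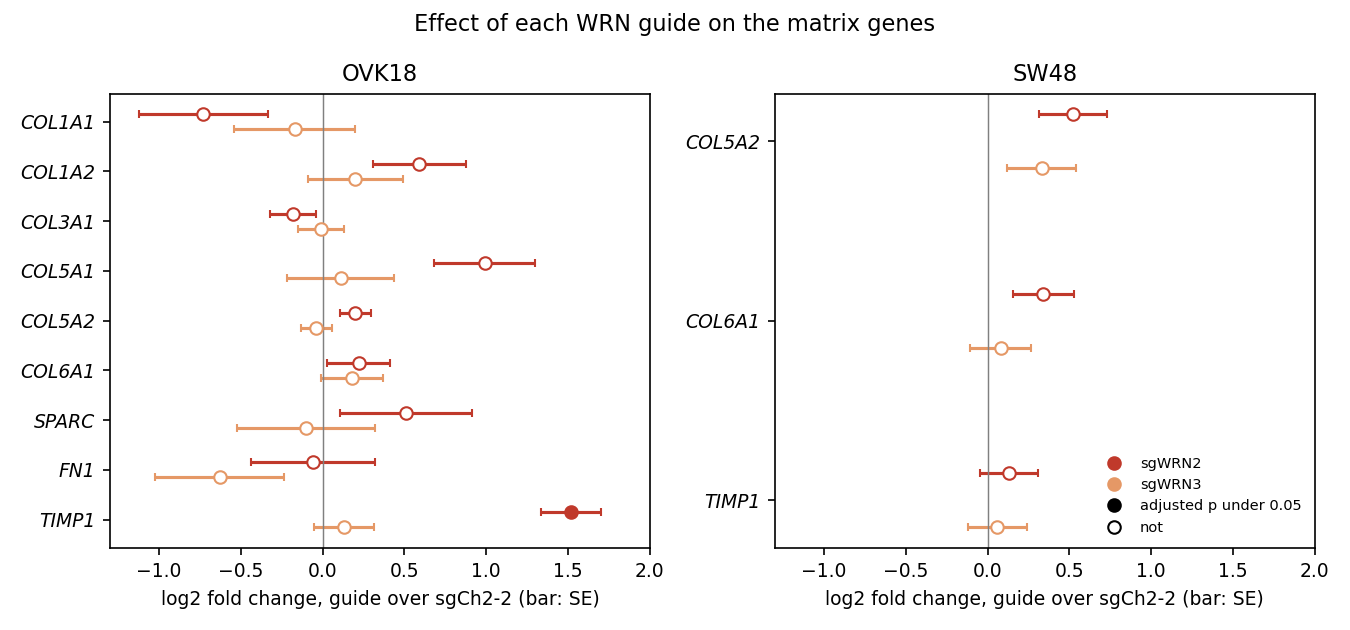
Log2 fold changes of the matrix genes with sgWRN2 and sgWRN3 over sgCh2-2, with the standard error as bars; filled points have an adjusted p under 0.05. OVK18 shows the 9 tested members and SW48 the 3 with at least 20 counts in every library. TIMP1 with sgWRN2 in OVK18, at 1.52, is the 1 filled point.

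The other genes of collagen synthesis, assembly and turnover were followed in 9 lists of 135 genes, of which 94 were tested. With both guides in OVK18, edgeR called 0 of 94 (1 at an unadjusted p under 0.05, against 4.04% of all genes), and DESeq2 and limma-voom called 0. TIMP2, a relative of TIMP1, was that gene, with a difference of -0.31 (SE 0.0968, adjusted p = 1), the opposite sign to TIMP1. With sgWRN2 alone in OVK18, edgeR called 0 of 94, with 9 at an unadjusted p under 0.05, against 13.9% of all genes. DESeq2 called 1 of the 94 and 430 genes in all, and limma-voom called 0 of the 94.

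With both guides in SW48 edgeR called 1 of the 94 pathway genes, a share near the 0.866% of all genes that it called. DESeq2 called 2 of the 94 and 298 genes in all, and limma-voom 1 of the 94 and 135 in all. The gene called by edgeR was SDC4, a heparan sulfate proteoglycan that acts with integrins in adhesion to fibronectin. SDC4 stood at 164 and 150 CPM in SW48 with sgWRN2, 130 and 128 CPM with sgWRN3, and 98.9 and 101 CPM with sgCh2-2. All 4 libraries with WRN guides lay above both controls. It rose by 0.51 (SE 0.0859, adjusted p = 0.0179, edgeR's quasi-likelihood test), and by 0.65 with sgWRN2 alone (adjusted p = 0.00303). The both-guide call was lost without any 1 of 5 SW48 libraries: A or B of sgCh2-2 (adjusted p = 0.13 and 0.209), A or B of sgWRN2 (0.0748 and 0.0567), or A of sgWRN3 (0.0614). It was also lost without the sgWRN2 libraries of both lines (0.37, adjusted p = 1), in a fit of the 6 SW48 libraries alone (0.50, adjusted p = 0.054) and with limma on FPKM without a filter (0.44, adjusted p = 0.0607). Over all 28 alternatives its adjusted p ran from 6.08e-07 to 1.

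Between the control libraries of the lines, 38 of the 94 pathway genes were called higher and 37 lower in OVK18, where 34.7% of all genes were called higher and 33.9% lower. The lists were chosen with results of these libraries known and are described by their counts. With a filter at a mean of 5 CPM, which leaves fewer genes to test, 25 were called higher. The number called lower ran from 25 to 40 over the alternatives. Of the enzymes and chaperones that fold collagen, 7 of 20 were called higher and 6 lower in OVK18. PPIB, a proline isomerase, averaged 301 ± 44.4 FPKM in OVK18 controls and 380 ± 55.4 FPKM in SW48 controls. P4HA1, a catalytic chain of prolyl 4-hydroxylase, averaged 58.4 ± 4.38 FPKM in OVK18 controls and 51.6 ± 1.53 FPKM in SW48 controls (SD, n = 2 each). P4HB, the partner chain of that enzyme, averaged 124 ± 28 FPKM in OVK18 controls and 251 ± 45.6 FPKM in SW48 controls.

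Downstream of folding, the procollagen proteinase BMP1 had the highest level of its list in OVK18 controls, at 4.37 ± 0.422 FPKM, against 5.18 ± 1.31 FPKM in SW48 controls. PCOLCE, a proteinase enhancer, averaged 1.21 ± 0.251 and 0.95 ± 0.0759 FPKM in OVK18 and SW48 controls. ADAMTS3, another procollagen proteinase, averaged 1.72 ± 0.133 FPKM in OVK18 controls and 0.00364 ± 0.00514 FPKM in SW48 controls (SD, n = 2 each). It was among 2 of 5 propeptide-processing genes called higher in OVK18, with 1 lower. Of the 5 cross-linking enzymes, 3 were called higher and 2 lower in OVK18. LOXL3, a lysyl oxidase relative, averaged 2.33 ± 0.202 FPKM in OVK18 and 1.55 ± 0.194 FPKM in SW48 controls. LOXL1, named here after its values were seen, averaged 0.00699 FPKM in OVK18 and 11.6 ± 4.52 FPKM in SW48 controls. With LOX near 0 in both lines, LOXL1 in SW48 and LOXL3 in OVK18 were the lysyl oxidase transcripts of highest level in these controls.

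Matricellular and elastic-fibre genes split 10 higher and 7 lower in OVK18, of 17 tested. SPP1, the adhesive phosphoprotein osteopontin, averaged 1800 ± 15 FPKM in OVK18 controls and 0.046 ± 0.0651 FPKM in SW48 controls. FBLN1 and MFAP2, proteins of elastic and microfibrillar networks, averaged 23.8 ± 4.21 and 25.8 ± 5.28 FPKM in OVK18, against 0.0167 and 0.0234 FPKM in SW48 (n = 2 each). Osteopontin was thus far above every collagen member in OVK18.

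Among proteases and inhibitors 3 of 7 were called higher and 1 lower in OVK18. MMP14, a membrane-bound collagenase, averaged 35.7 ± 5.27 FPKM in OVK18 controls and 9.74 ± 1.63 FPKM in SW48 controls. TIMP2, which takes part in activating MMP2 with MMP14, averaged 12.5 ± 1.31 and 15.5 ± 0.905 FPKM in OVK18 and SW48 controls. Of 12 tested receptors 3 were called higher and 7 lower in OVK18. ITGB1, the beta chain shared by the collagen-binding integrins, averaged 577 ± 1.79 FPKM in OVK18 controls and 110 ± 1.81 FPKM in SW48 controls. The collagen-binding alpha chains ITGA1 and ITGA2 averaged 0.0249 and 0.00553 FPKM in OVK18 controls, against 0.914 and 15.7 FPKM in SW48 controls. ITGA10 averaged 0.0692 and 0.0502 FPKM in OVK18 and SW48 controls, and ITGA11 had no count in either line. DDR1, a collagen receptor listed at 0 FPKM in both controls, averaged 13.5 CPM in OVK18 and 246 CPM in SW48 controls. CD44, a receptor for hyaluronan and matrix proteins, averaged 0.028 ± 0.0018 FPKM in OVK18 controls and 37.2 ± 0.527 FPKM in SW48 controls.

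Genes of the transforming growth factor beta pathway, which is known to raise collagen transcription in fibroblasts, split 7 higher and 9 lower in OVK18, of 21 tested. SMAD3, a signal carrier, averaged 203 ± 12.9 FPKM in OVK18 controls and 12.6 ± 0.0379 FPKM in SW48 controls. SKIL, an inhibitor of SMAD proteins, averaged 56.8 ± 5.28 and 3.25 ± 1.09 FPKM in OVK18 and SW48 controls. Among the 9 called lower in OVK18, SMAD7 averaged 0.528 and 24.4 FPKM and BAMBI 0.933 and 359 FPKM in OVK18 and SW48 controls. The ligand TGFB2 averaged 0.157 and 10.5 FPKM and the receptor TGFBR2 4.55 and 14.8 FPKM. A link of this pathway to the collagen levels was not tested. With both WRN guides in either line 0 of these 21 were called by edgeR.

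The genes whose pattern over the 12 libraries was most like that of COL5A2 were GATA3, OGFRL1, LOC100507195 and CHFR. Likeness was the root mean square difference of centred log2 CPM (prior count 2), which was 0.196 for GATA3, 0.205 for OGFRL1, 0.217 for LOC100507195 and 0.222 for CHFR. All 4 had no count in any SW48 library and 32.3 to 55.7 CPM in OVK18 libraries. GATA3, a transcription factor, ran from 38.4 to 55.7 CPM in OVK18, and CHFR, a mitotic checkpoint ubiquitin ligase, from 33.3 to 37.4 CPM. With no SW48 counts, the size of their step between the lines is set by the prior count, so the order of likeness does not show a fold change like that of COL5A2.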

How the data were processed

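Messenger RNA was measured in 12 libraries from 2 Cas9-expressing lines. The authors deposited raw gene counts, for which the submitters' processing notes name bcl2fastq 2.18, STAR 2.5 and build hg19. They also deposited a table read here as FPKM, because counts divided by its values grow with transcript length (Spearman rho 0.79 over 10307 genes); its header gives no unit, and Cufflinks 2.2.1 is in those notes. The annotation and the strand setting are not given in the sources used here. The count table holds 25343 genes; 92 spike-ins, all at 0, and 28 symbols turned into dates are not reported.

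Counts were fitted in R 4.3.3 with edgeR 4.0.16: TMM, filterByExpr (14199 genes tested), 1 coefficient per group over all 12 libraries, a robust quasi-likelihood fit (6 residual degrees of freedom) and Benjamini-Hochberg adjustment at 0.05. Standard errors are the log2 fold change divided by the root of the F statistic. Replicate libraries differed beyond counting error (chi-square per gene 8.67 to 24.9). Steps were tested on simulated data. Alternatives were other scalings and filters, DESeq2 1.42.0, limma-voom and limma 3.58.1 on log2 FPKM, a replicate block, 1 line alone, and leaving out libraries. Members and lists were chosen with earlier results of these data known. Genes named beyond the members are the up to 3 highest of each list in OVK18 controls, the 2 with the smallest p with both guides, and the 4 most like COL5A2. COL2A1, COL5A3, COL6A3, COL6A6, LOXL1, SYN1 and the single cell type markers named were chosen after their values were seen. So were ITGA1, ITGA2, ITGA11, DDR1, SMAD7, BAMBI, TGFB2 and TGFBR2. No outlier test is possible with groups of 2.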

Additional observations from a re-analysis of the deposited data

How the results depend on the processing

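TIMP1 in OVK18 with sgWRN2 was 1.39 to 1.70 on the log2 scale over 26 alternatives (adjusted p 1.13e-23 to 0.0541) and against sgWRN3 1.28 to 1.56 (adjusted p 1.27e-19 to 0.071). Members called were 0 in place of 1 in both comparisons with limma on FPKM (pseudocount 1, no filter), and 0 to 1 when single libraries were left out. With both guides in OVK18, 1 member (TIMP1) in place of 0 was called with no filter on low counts and with DESeq2; for the difference between the lines 1 (TIMP1) was called with no filter. The sgWRN2 difference of TIMP1 between the lines passed in 8 of 25 alternatives (adjusted p 8.57e-10 to 0.291). The cause of these changes was not tested.

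Differences with both guides changed sign as follows, none past the threshold in either form. Without 1 library of OVK18, COL1A1 ran from -0.87 to 0.25 (0.25 without sgCh2-2 replicate B) and SPARC from -0.04 to 0.56 (-0.04 without sgCh2-2 replicate A). Without the sgWRN2 libraries, COL5A2 was -0.04 and SPARC -0.10 in OVK18. Without 1 library of SW48, COL3A1 ran from -2.92 to 3.08 (3.08 without sgCh2-2 replicate A), FN1 from -2.48 to 0.12 (0.12 without sgCh2-2 replicate B, 0.06 without sgWRN3 replicate A), SPARC from -0.14 to 3.79 (-0.14 without sgWRN3 replicate A) and TIMP1 from -0.11 to 0.32 (-0.11 without sgCh2-2 replicate B, -0.01 without sgWRN3 replicate A). TIMP1 with sgWRN3 in OVK18 ran from -0.03 to 0.28, with -0.03 without sgCh2-2 replicate B or sgWRN3 replicate A. With sgWRN2 in SW48, TIMP1 ran from -0.09 (without sgCh2-2 replicate B) to 0.34, and SYN1 from -0.14 (without sgWRN2 replicate A; -0.09 without sgCh2-2 replicate A) to 0.34. Pathway genes higher in OVK18 controls numbered 25 in place of 38 with a mean of at least 5 CPM and with limma on FPKM at pseudocounts 1 and 0.1. Those lower numbered 25 to 40 over the alternatives, beside 37 in the main fit.

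The letters A and B do not pair the libraries by the labels. With the letters as a replicate block, TIMP1 in OVK18 with sgWRN2 was 1.53 (adjusted p = 0.0185), 1 member was called there as without the block, and SDC4 with both guides in SW48 lost its call (0.51, adjusted p = 0.066). Over all genes the block gave 38 calls in place of 113 with sgWRN2 in OVK18, and 28 in place of 123 with both guides in SW48; without the sgWRN2 libraries and with the block, COL5A2 was -0.04 and SPARC -0.09 in OVK18. The differences of A and B correlated at 0.5 to 0.558 among the sgCh2-2 and sgWRN3 groups of both lines, at 0.521 between the sgWRN2 groups, and at -0.165 to -0.551 between these 2 sets (10769 genes). With the letters crossed in the sgWRN2 groups, a pairing chosen after seeing the data, members called were 1 (TIMP1) for both guides in OVK18, 2 (TIMP1, COL5A1) for sgWRN2 in OVK18, 1 (COL6A1) for sgWRN2 in SW48, 1 (COL6A1) for sgWRN2 against sgWRN3 in SW48, and 1 (TIMP1) for the difference between the lines. This crossed pairing also gave more calls over all genes than the main fit in each of these comparisons. For sgWRN2 against sgWRN3 in SW48 it gave 709 in place of 134. The member calls it added are therefore not read as results about the members. Control levels of the members moved by less than 1 SD under the 3 other scalings.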

Other observations

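The genes beside COL3A1 and COL5A2 on chromosome 2 were looked up after the values of both had been seen, in the order of protein-coding genes in the GENCODE annotation. CALCRL, a peptide hormone receptor chain, averaged 253 ± 27.5 CPM in OVK18 controls and 0.0641 ± 0.0906 CPM in SW48 controls (SD, n = 2 each). TFPI, an inhibitor of blood coagulation next to it, averaged 265 ± 5.17 CPM in OVK18 controls and 0.059 ± 0.0071 CPM in SW48 controls. GULP1, between TFPI and the collagen genes, averaged 103 ± 22.2 and 32 ± 12.2 CPM in OVK18 and SW48 controls. DIRC1, the nearest neighbour of COL3A1, had no count in these 4 libraries. On the COL5A2 side, WDR75, a ribosome biogenesis factor, averaged 380 ± 29.1 CPM in OVK18 controls and 144 ± 7.87 CPM in SW48 controls. SLC40A1, the iron exporter, averaged 17.2 ± 0.0857 and 10 ± 1.12 CPM, ASNSD1 91.1 ± 1.27 and 108 ± 1.09 CPM, and ANKAR 1.45 ± 0.232 and 3.26 ± 1.04 CPM in OVK18 and SW48 controls. The step between the lines at this place was therefore not shared by all neighbours.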
